A study of Mus musculus with 96 samples.

Results

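The 9 genes described here act in mitophagy, autophagy and protein ubiquitination during red cell maturation: Bnip3l, Ulk1, Map1lc3b, Gabarapl2, Ubb, Ube2h, Fbxo7, Trim10 and Trim58. They were taken by symbol from the 24321 gene symbols in the data, and all 9 were measured. They were followed in single mouse marrow cells along the level of Hba-a1, an alpha-globin gene, and against marrow cells of other blood lineages. Levels are in RPKM, which scales the reads of a transcript to its length and to the mapped reads of the cell, and a gene is called listed in a cell at 1 RPKM or more.

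A maturing red cell removes its mitochondria, ribosomes and most of its proteins while it fills with hemoglobin. Mitochondria are removed by selective autophagy: a receptor on the outer mitochondrial membrane is bound by small ubiquitin-like proteins of the LC3 and GABARAP family, which are attached to the growing autophagosome membrane. Proteins are removed by the ubiquitin system, in which an E1 enzyme activates ubiquitin, an E2 enzyme carries it, and an E3 ligase chooses the substrate. Several E2 and E3 genes are known to be strongly expressed late in this process, when most other transcripts are being lost.

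RNA was sequenced from 96 single cells of C57BL/6 mice, all labelled as erythroid precursors with the genotype Rpl11 +/lox, which the titles call heterozygous. Rpl11 is a ribosomal protein gene, the labels name no age, treatment or Cre driver, and by the series text the cells were to span the stages from BFU-E, an early progenitor, to the basophilic erythroblast. All cells carry this 1 group label with no animal named and no wild-type cells, so they form 1 sample, differences between cells have no test, and SDs are over cells. Rpl11 was listed in 41 of 58 erythroid cells (70.7%, exact interval 57.3% to 81.9%), which without wild-type cells checks no dose. Each cell was captured on a Fluidigm C1 chip and amplified with SMART-Seq chemistry.

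Cells with at least 1000 listed genes were compared, which left out 27 of 96 cells (28.1%). By marker genes, 58 of the other 69 were erythroid. The other 11 were non-erythroid: 7 met a monocyte or macrophage list, 2 a neutrophil list, 1 a mast cell or basophil list and 1 a T or NK cell list. The label erythroid precursor therefore did not hold for all cells. Erythroid cells were split by Hba-a1 into 10 low-globin cells (under 100000 RPKM, median 5040), 11 mid-globin cells (100000 to 300000, median 212180) and 37 high-globin cells (300000 or more, median 439819). Non-erythroid cells had a median of 275 RPKM. The median number of listed genes was 4072.5 in low-globin, 3016 in mid-globin and 1551 in high-globin cells. Depth, estimated in units of 1000 reads, had medians of 5169, 6827 and 7518 in the same order. Non-erythroid cells had medians of 4714 listed genes and a depth of 4143 such units. Fewer listed genes therefore went with more Hba-a1 at no lower depth over all reads. That depth includes globin reads, with Hba-a1 alone at a median of 439819 RPKM in high-globin cells. The depth left for other genes was not estimated.

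The low-globin cells were of 2 kinds. Cells 3, 11, 60 and 68 had 3 to 5 of 25 erythroid markers at 10 RPKM or more, where non-erythroid cells had 2 to 7 and the other 6 low-globin cells had 17 to 23. In these 4 cells 12 of 17 erythroblast markers, Alas2 and Klf1 among them, were under 1 RPKM in every cell. They held 1 to 4 neutrophil markers, with a summed level of 122 to 13880 RPKM, and 2 to 4 monocyte markers, with a summed level of 415 to 8150 RPKM. The other 6 cells held 0 markers of either list at that level. Whether less of a transcript per cell or admixed cells set these values was not tested. Results on low-globin cells are therefore given for all 10 and for the 6 marker-rich cells, a split chosen after the data were seen. Cells 12 (non-erythroid) and 94 (high-globin) also stood apart, with Ubb at 1.76 and 9.54 RPKM where every other analysed cell had at least 744 RPKM. Non-erythroid cell 56 stood apart in depth, estimated at 185 units of 1000 reads, where the lowest of the erythroid cells had 1530. At that depth 3 reads of a 1000-base transcript make 16.2 RPKM, so a value of 0 in cell 56 says little. It was kept, and it gave the highest non-erythroid values of Ubb and Map1lc3b.

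A difference between groups is of mean log2(RPKM + 1). It is called where it is at least 1 with the same sign in each of the 3 run codes (sequencing codes in the sample descriptions) that held at least 3 cells of both groups. As a background, the same rule was applied to the 5855 genes listed in at least 10 analysed cells, a filter that 7 of the 9 genes passed and Ulk1 and Trim58 did not.

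Of the 9 genes, Trim10 had the largest differences of the mid- and high-globin bands from all 10 low-globin cells. It encodes a RING-domain protein of the tripartite motif (TRIM) family known from erythroid cells. Its level was 0 RPKM in all 4 marker-poor low-globin cells. In the 6 marker-rich cells it was 0, 0, 0.76, 10.5, 16.0 and 19.5 RPKM. Mid-globin cells ran from 1.39 to 396 RPKM with a median of 60.2. High-globin cells ran from 0 to 408 RPKM with a median of 58.0, and it was listed in 24 of 37 of them (64.9%, 47.5% to 79.8%). In the 11 non-erythroid cells its highest value was 0.0749 RPKM, and 0 of 11 listed cells allows a share of up to 27.3%. All 11 mid-globin cells thus listed Trim10, and 9 of them lay above the highest low-globin cell, while cells 59 and 84 lay within the low-globin range. Of the 37 high-globin cells 13 were under 1 RPKM and the other 24 had 19.3 RPKM or more.

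Mean Trim10 levels on the log2 scale were 1.28 (SD 1.90, n = 10) in low-globin, 5.71 (SD 2.33, n = 11) in mid-globin, 4.37 (SD 3.32, n = 37) in high-globin and 0.01 (SD 0.03, n = 11) in non-erythroid cells. Mid-globin cells were higher than low-globin cells by 4.43, or by 3.58 against the 6 marker-rich cells, more than the SD of either group. Within run codes this difference was 3.52 in SCP-170608 and 7.16 in SCP-1706080. High-globin cells were higher than low-globin cells by 3.09, or by 2.24 against the marker-rich cells, both less than the high-globin SD. Against all 10 low-globin cells it was 1.06, 2.14 and 5.16 within the 3 run codes. Of the 5855 genes, 99.5% had a smaller signed difference than Trim10 in that comparison and 99.7% in mid against low globin. The call did not hold when the erythroid cells were cut into 3 near-equal bands by Hba-a1 rank, where high against low gave 0.16, a cut whose lowest band holds 19 cells, some of them mid-globin cells. Between high and mid globin the level was lower by 1.34, less than the SD of either group.

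The promoter windows of the 2 TRIM genes are shown because Trim10 was listed in 38 of 58 erythroid cells and Trim58, its relative, in 1. They are the 250 bases before the annotated start, 5′ to 3′, from RefSeq on GRCm38.p6. Trim10 is at chr17:36869324-36869573 and Trim58 at chr11:58640215-58640464, both on the plus strand. Capitals mark a match to AGATAA or TGATAA on either strand, a form of the site bound by GATA factors, which drive erythroid genes.
Trim10: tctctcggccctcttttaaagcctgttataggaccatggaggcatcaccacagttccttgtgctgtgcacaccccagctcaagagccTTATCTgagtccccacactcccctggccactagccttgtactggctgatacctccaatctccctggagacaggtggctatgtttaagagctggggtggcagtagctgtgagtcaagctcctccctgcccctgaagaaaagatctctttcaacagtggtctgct
Trim58: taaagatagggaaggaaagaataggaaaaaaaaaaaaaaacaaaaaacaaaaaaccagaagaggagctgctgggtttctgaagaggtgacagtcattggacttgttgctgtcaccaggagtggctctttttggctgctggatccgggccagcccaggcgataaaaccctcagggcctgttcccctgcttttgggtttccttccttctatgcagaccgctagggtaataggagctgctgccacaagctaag

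Trim10 held 1 match, starting 163 bases before the start, and Trim58 held 0. Forms of the site that end in G were not searched. One of them, AGATAG, occurs near the 5′ end of the Trim58 window, so the 0 holds for AGATAA and TGATAA only. Such a match was present in 16.6% of 32851 promoter windows of this length. Of the 11 windows found for 8 of the 9 genes, the only other match was in 1 of 2 windows of Ube2h. A second motif, CCACACCC, a form of the KLF1 site, was present in 3.2% of windows and in 0 of these 11, and its looser form CCNCNCCC in 45.9% of windows and in 7 of these 11. The motifs were chosen after the sequences had been seen, and a match describes letters and not binding.

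**Figure D1:**
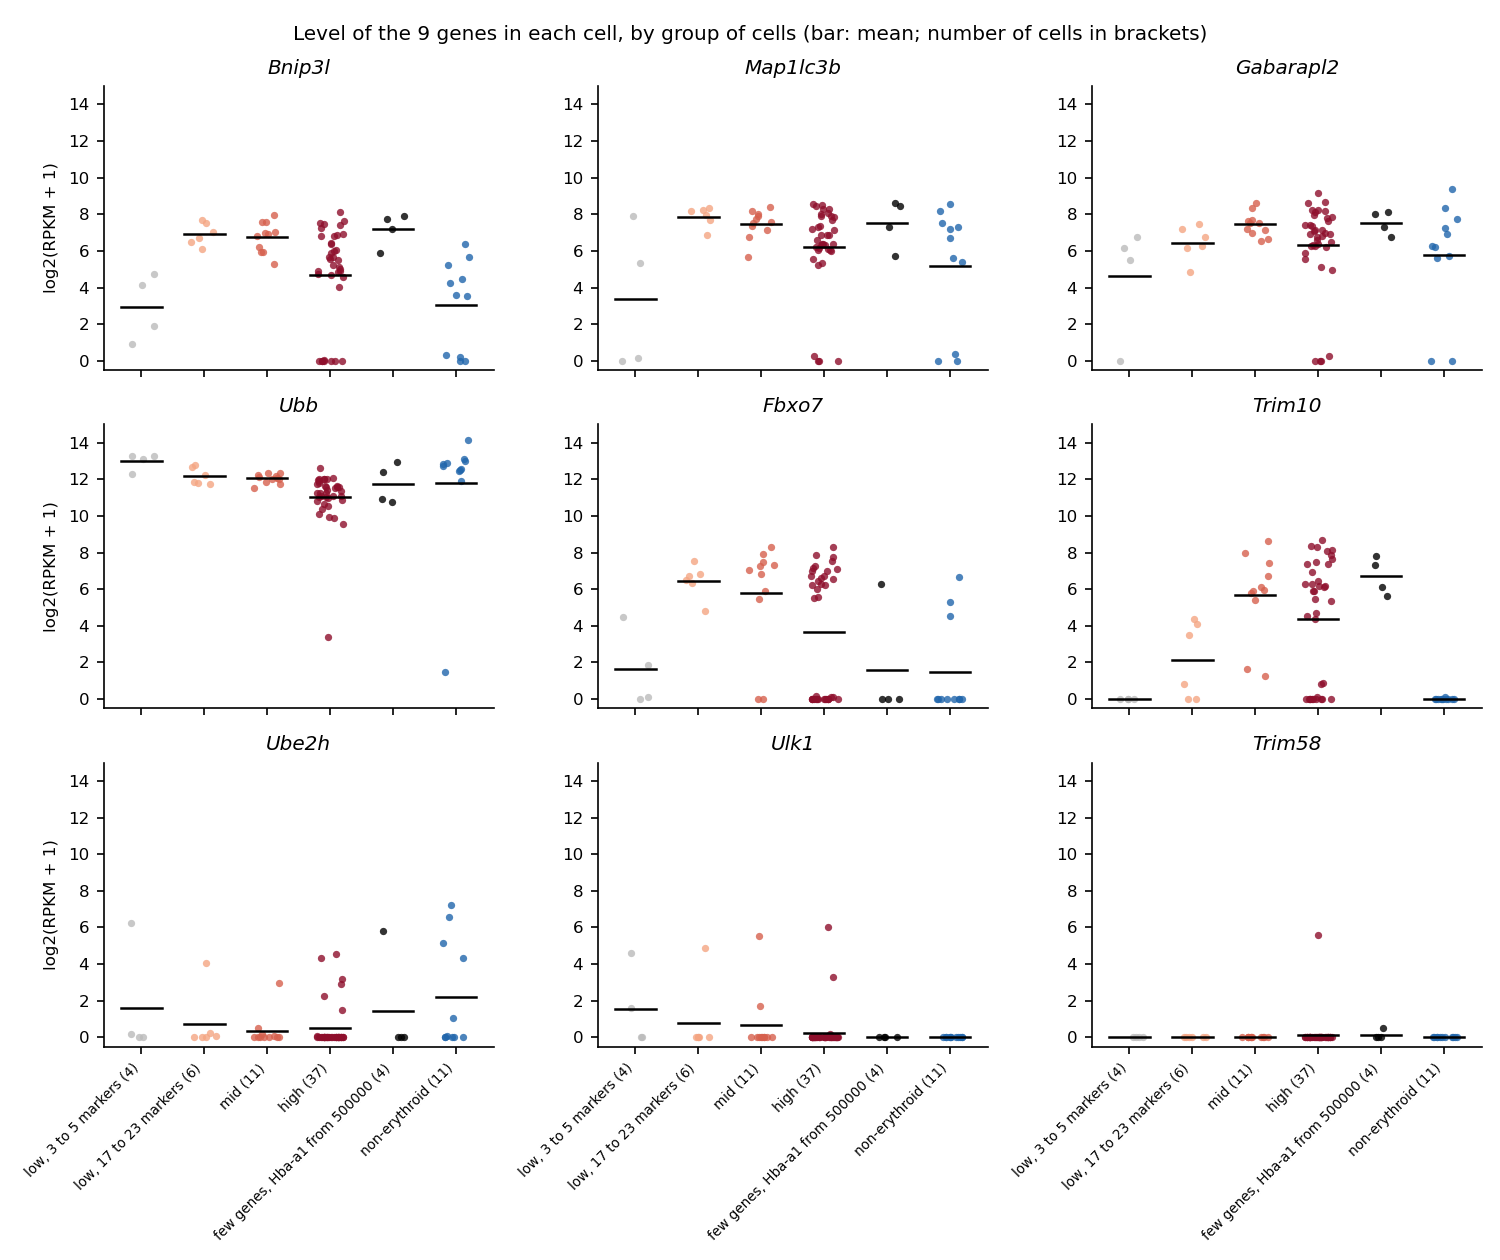
Each point is 1 cell, the y axis is log2(RPKM + 1), and bars are means over the cells of a group, with the number of cells in brackets. Trim10 is at or near 0 in the 11 non-erythroid and 4 marker-poor low-globin cells and listed in all 11 mid-globin cells, while Ubb is high in nearly every cell.

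Bnip3l, also called NIX, encodes the mitochondrial receptor that reticulocytes need to clear their mitochondria. Among the groups compared, its mean log2 level was highest in the marker-rich low-globin cells. Their 6 values ran from 67.1 to 202 RPKM with a median of 116. Mid-globin cells ran from 37.9 to 244 RPKM with a median of 119. High-globin cells ran from 0 to 278 RPKM with a median of 45.0, and 29 of 37 listed it (78.4%, 61.8% to 90.2%). Non-erythroid cells ran from 0 to 80.8 RPKM with a median of 11.0, and 7 of 11 listed it (63.6%, 30.8% to 89.1%). The marker-poor low-globin cells had 0.897, 2.78, 16.7 and 25.9 RPKM, within the non-erythroid range. The 6 marker-rich and the 11 mid-globin cells overlapped throughout, and the high-globin cells spread from 0 to above both.

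In mean log2 level, mid-globin cells (6.74, SD 0.82) differed from the marker-rich low-globin cells (6.92, SD 0.60) by -0.18, less than either SD. Against all 10 low-globin cells the difference was 1.41, and 0.49 after rescaling each cell to the same total, so that call rested on the 4 marker-poor cells and on the scaling. High-globin cells (4.71, SD 2.69) were lower than mid-globin cells by 2.03, with -1.24 and -1.90 within run codes. Against non-erythroid cells (3.05, SD 2.46) Bnip3l was higher by 3.69 in mid-globin, 2.27 in low-globin and 1.65 in high-globin cells. The last of these was 0.31 after rescaling and 0.40 without run code SCP-170608, under the size of a call. Without cells 12 and 94 it was 1.50, and neither it nor the low-globin difference was then called, since run codes differed in sign.

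Fbxo7 is the substrate-binding F-box subunit of an SCF ubiquitin ligase, and its loss is known to impair red cell formation. All 6 marker-rich low-globin cells listed it, at 27.5 to 186 RPKM with a median of 97.3. It was listed in 9 of 11 mid-globin cells, with a median over all 11 of 130 RPKM and a highest value of 316 RPKM. Of high-globin cells 20 of 37 listed it (54.1%, 36.9% to 70.5%), and those 20 had 44.7 to 317 RPKM with a median of 105. Non-erythroid cells listed it in 3 of 11 (27.3%, 6.02% to 61.0%), at 22.2, 38.8 and 100 RPKM. High-globin cells thus had either under 1 RPKM of Fbxo7 or a level like that of the mid-globin cells that listed it (43.2 to 316 RPKM).

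Mean log2 Fbxo7 was 4.53 (SD 2.86) in all low-globin, 6.47 (SD 0.90) in marker-rich low-globin, 5.78 (SD 2.97) in mid-globin, 3.68 (SD 3.47) in high-globin and 1.50 (SD 2.61, n = 11) in non-erythroid cells. It was higher than in non-erythroid cells by 3.03 in low-globin, 4.28 in mid-globin and 2.18 in high-globin cells. High-globin cells were lower than mid-globin cells by 2.09, less than the SD of either group. Mid against low globin gave 1.25 with all 10 low-globin cells, 0.54 after rescaling to the same total, and -0.69 with the 6 marker-rich cells.

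Map1lc3b and Gabarapl2 encode LC3B and GATE-16, ubiquitin-like proteins that are joined to autophagosome membranes and bind receptors such as NIX. Map1lc3b was listed in all 6 marker-rich low-globin cells (116 to 322 RPKM, median 264) and all 11 mid-globin cells (48.9 to 336 RPKM, median 188). High-globin cells listed it in 33 of 37, with a median of 95.8 and a highest value of 383 RPKM. Non-erythroid cells listed it in 8 of 11 and reached 376 RPKM with a median of 103. All 4 groups overlapped in Map1lc3b.

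Gabarapl2 ran from 28.2 to 173 RPKM in the marker-rich low-globin cells with a median of 91.2. Mid-globin cells ran from 91.0 to 392 RPKM with a median of 181. High-globin cells listed it in 33 of 37, with a median of 122 and a highest value of 568 RPKM, the largest among erythroid cells. Non-erythroid cells listed it in 9 of 11, with a median of 75.9 RPKM and a highest value of 664 RPKM in cell 54, which met the basophil list. Of the 11 mid-globin cells 6 lay above the highest low-globin cell and the others within the low-globin range.

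From mid to high globin, mean log2 Map1lc3b went from 7.48 (SD 0.77) to 6.23 (SD 2.37), a difference of -1.25, and Gabarapl2 from 7.44 (SD 0.64) to 6.34 (SD 2.41), a difference of -1.10. After rescaling without globin genes these were -0.53 and -0.37, and neither was called. Against low globin, mid-globin cells were higher by 1.41 in Map1lc3b and 1.73 in Gabarapl2. These were 0.58 and 0.82 after rescaling to the same total, and -0.39 and 0.99 with the 6 marker-rich cells. Against non-erythroid cells (5.17, SD 3.38) Map1lc3b was higher by 2.30 in mid-globin and 1.05 in high-globin cells, and the second was -0.49 after rescaling to the same total. Gabarapl2 was higher than in non-erythroid cells by 1.68 in mid-globin cells and by 0.58, not called and of the opposite sign after rescaling, in high-globin cells.

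Ubb, a polyubiquitin gene, was listed in all 58 erythroid and all 11 non-erythroid cells, and where listed it stood at the 99.0th percentile of listed genes in the median erythroid cell. Low-globin cells ran from 3448 to 9931 RPKM with a median of 5761, and the 6 marker-rich cells had a median of 4290. Mid-globin cells ran from 2990 to 5287 RPKM with a median of 4373. High-globin cells ran from 9.54 to 6344 RPKM with a median of 2476. Non-erythroid cells ran from 1.76 to 18179 RPKM with a median of 6769. The 4 marker-poor low-globin cells, at 4906, 8931, 9790 and 9931 RPKM, lay toward the non-erythroid end.

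Ubb was lower in high-globin than in low-globin cells by 1.46 in mean log2 level (11.05, SD 1.47, against 12.50, SD 0.61), with -1.23 to -1.90 within run codes. Against the 6 marker-rich cells the difference was -1.14. When globin genes were removed and each cell rescaled to the same total these were -0.24 and 0.10, so that the sign of the latter turned, and the difference from mid-globin cells went from -1.01 to -0.08. Without cells 12 and 94 the latter was -0.79, under the size of a call. The reads that make up Ubb are uncertain: 48.1% of its 50-base words also occur in transcripts of other genes, nearly all of them (48.0%) in the predicted gene Gm1821.

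Ube2h, Ulk1 and Trim58 were scarce in these cells. Ube2h is an E2 enzyme that works with the CTLH ligase in erythroid cells. It was listed in 2 of 10 low-globin, 1 of 11 mid-globin and 6 of 37 high-globin cells (16.2%, 6.19% to 32.0%), with a highest value of 76.0 RPKM, in the marker-poor low-globin cell 60. Among non-erythroid cells it was listed in 5 of 11 (45.5%, 16.7% to 76.6%), up to 92.8 RPKM in cell 56 (T or NK list, low depth) and 150 RPKM in cell 54 (basophil list). Mean log2 Ube2h was lower than in non-erythroid cells (2.22, SD 2.96) by 1.71 in high-globin and 1.88 in mid-globin cells, less than the non-erythroid SD. Against cells of the neutrophil and monocyte lists alone the differences were -0.67 and -0.84. Ube2h was thus listed in few erythroid cells. Without the marker-poor cells its highest erythroid value was 22.3 RPKM in high-globin cell 30. The highest in marker-rich low-globin cells was 15.6 RPKM in cell 31, and in mid-globin cells 6.71 RPKM in cell 49.

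Ulk1, the kinase that starts autophagosome formation, was listed in 3 of 10 low-globin, 2 of 11 mid-globin and 2 of 37 high-globin cells (5.41%, 0.661% to 18.2%). Its values there were 2.09, 23.0 and 28.1 RPKM, then 2.26 and 45.4 RPKM, then 8.76 and 63.3 RPKM. Non-erythroid cells listed it in 0 of 11, which allows a share of up to 27.3%. Trim58 encodes an E3 ligase that helps erythroblasts expel the nucleus. Only 1 of 58 erythroid cells listed it (1.72%, 0.0436% to 9.24%), high-globin cell 32 at 47.6 RPKM, and in 0 of 11 non-erythroid cells. Ulk1 was called higher in low-globin than in non-erythroid cells (1.11), but 2 of its 3 low-globin values were in the marker-poor cells 3 and 60, and the difference from the 6 marker-rich cells was 0.81, not called. No other difference of Ulk1 and none of Trim58 was called.

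**Figure D2:**
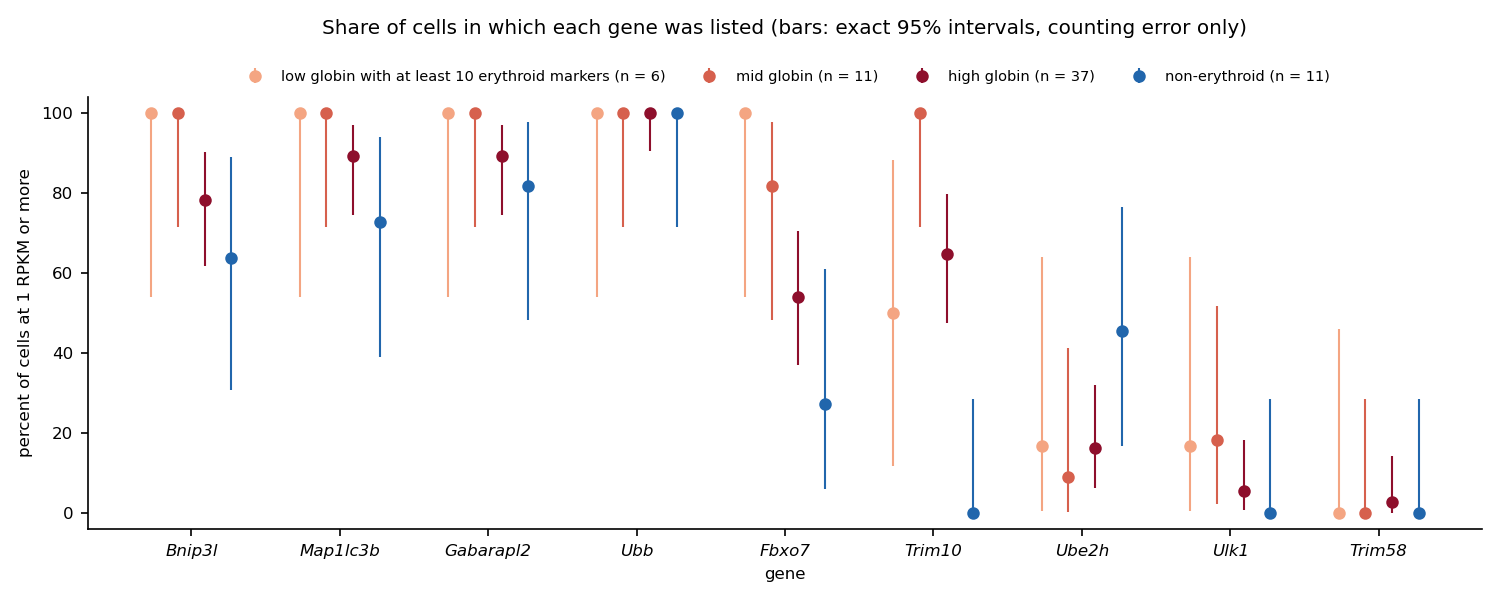
The y axis is the percent of cells with 1 RPKM or more for each gene on the x axis, and bars are exact 95% intervals that cover counting error only. Trim10 goes from 50.0% of marker-rich low-globin cells to 100% of mid-globin and 64.9% of high-globin cells with 0 in non-erythroid cells, while Ube2h, Ulk1 and Trim58 stay low in all 3 erythroid groups.

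Counted together, 1 of the 9 genes (Trim10) was called higher and 1 (Ubb) lower in high against low globin, where 2.9% of all genes were called higher and 58.7% lower. Mid against low globin gave 5 higher (Trim10, Gabarapl2, Map1lc3b, Bnip3l and Fbxo7) and 0 lower, beside 9.44% and 30.8% of all genes. With the 6 marker-rich low-globin cells 1 gene, Trim10, was called higher beside 5.79%, and 0 lower beside 44.1%, with no run code holding 3 cells of both groups. High against low globin with those 6 cells gave 1 higher beside 2.22% and 4 lower (Bnip3l, Map1lc3b, Ubb and Fbxo7) beside 67.7%, with the sign checked in 1 run code alone. In high against mid globin 0 were higher and 6 lower, beside 0.734% and 48.4%, and the median over the 9 genes was -1.10 against -1.08 over all genes. These medians parted with the scaling: they were -1.74 and -1.14 at a common total and -0.48 and -1.12 without globin genes.

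Against non-erythroid cells, high-globin cells had 4 of the 9 genes higher (Trim10, Fbxo7, Bnip3l and Map1lc3b), beside 6.97% of all genes, and 1 lower (Ube2h), beside 61.5%. The median over the 9 was 0.58 against -1.60 over all genes. Mid-globin cells had 5 higher beside 19.5% and 1 lower beside 27.9%, with a median of 1.68 against -0.27. Low-globin cells had 3 higher (Bnip3l, Fbxo7 and Ulk1, the last outside the filter behind the percentages) beside 23.5% and 0 lower beside 8.13%, with a median of 0.89 against 0.37. With the 6 marker-rich cells these were 4 higher (Bnip3l, Map1lc3b, Fbxo7 and Trim10, without Ulk1) beside 41.4% and 1 lower beside 13.5%, again with no run code holding 3 cells of both. All erythroid cells pooled had 4 higher beside 8.49% and 1 lower beside 45.6%. The comparisons share cells, so their counts are not independent of each other.

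**Figure D3:**
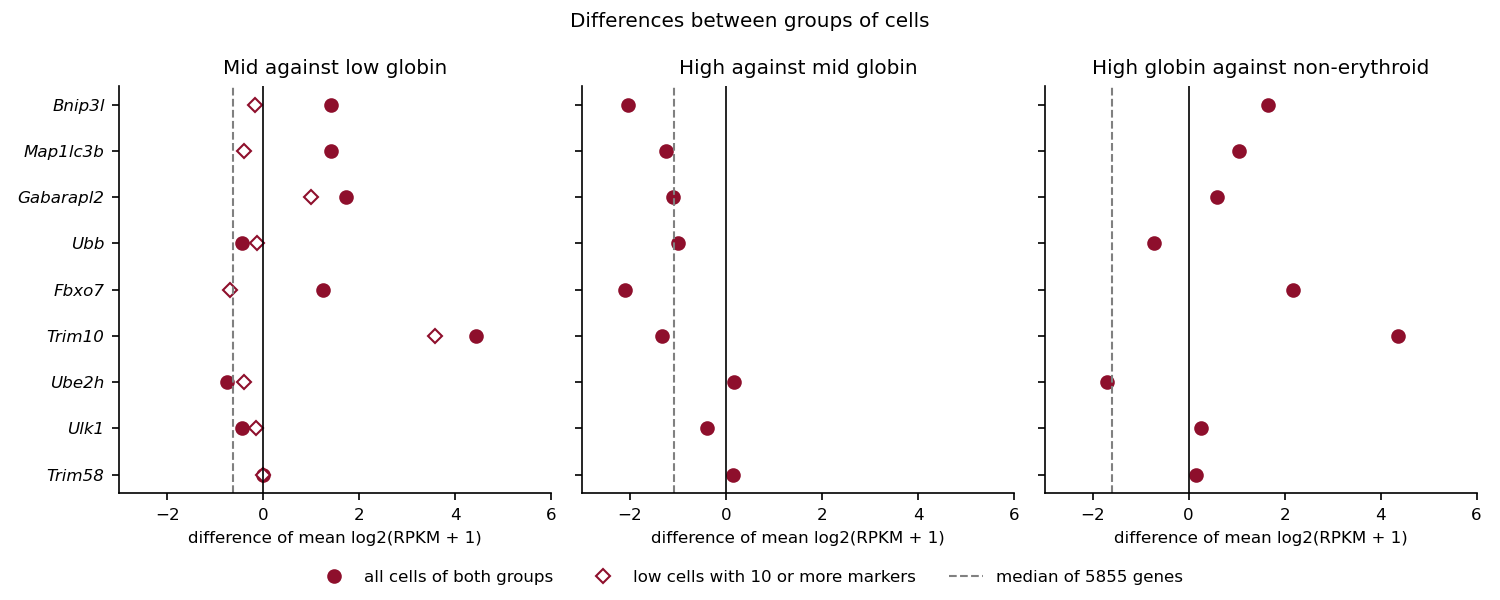
Filled points are differences of mean log2(RPKM + 1) between groups of cells for each gene, open diamonds use the 6 marker-rich low-globin cells, and the dashed line is the median over 5855 genes. Trim10 stays far to the right of zero in mid against low globin with either set (4.43 and 3.58), whereas Bnip3l, Map1lc3b and Fbxo7 move to zero or below, and in high against mid globin the genes lie around the all-gene median of -1.08.

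Along Hba-a1 within the 58 erythroid cells, Spearman's rho was -0.63 for Ubb, -0.28 for Fbxo7, -0.25 for Map1lc3b, -0.21 for Bnip3l, 0.13 for Trim10 and 0.03 for Gabarapl2. Without the 4 marker-poor cells (n = 54) rho was -0.55 for Ubb, -0.40 for Fbxo7, -0.42 for Map1lc3b, -0.39 for Bnip3l, -0.0088 for Trim10 and -0.10 for Gabarapl2, so that the last 2 signs turned. These are descriptions over cells of 1 sample, and Hba-a1 itself adds to the total of each cell. With globin genes removed and cells rescaled, rho was 0.10 for Ubb and 0.40 for Gabarapl2, and between -0.02 and 0.23 for the other 4. Within the 37 high-globin cells all 6 lay between -0.29 and 0.06. Trim10 thus differed in mean level between low-globin and other cells, with little order along Hba-a1 among the high-globin cells.

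**Figure D4:**
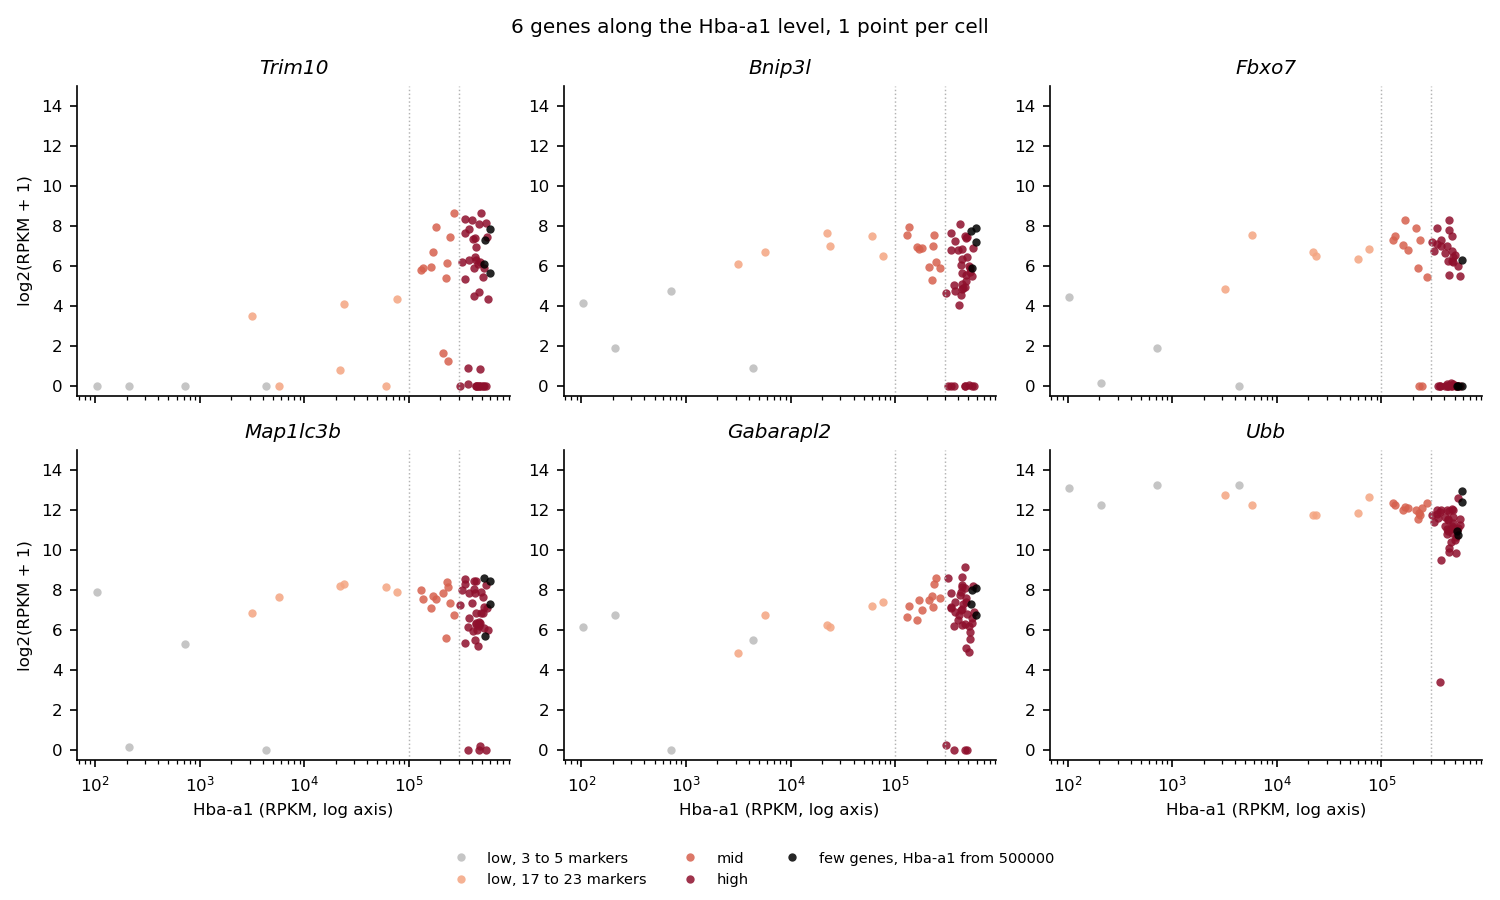
Each point is 1 erythroid cell, with Hba-a1 in RPKM on a log x axis and log2(RPKM + 1) of the named gene on the y axis, and dotted lines mark 100000 and 300000 RPKM. Trim10 is at 0 or low in low-globin cells. It is higher in most mid-globin cells and in the 24 of 37 high-globin cells that listed it. Trim10, Bnip3l, Fbxo7, Map1lc3b and Gabarapl2 all show cells at or near 0 to the right beside cells at the mid-globin level. The marker-poor low-globin cells (grey) stand apart in Bnip3l and Fbxo7.

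Among the 27 cells left out for few listed genes, 4 held Hba-a1 at 500000 RPKM or more (cells 55, 70, 78 and 92), a group chosen after the values were seen. They listed 462 to 897 genes at an estimated depth of 7027 to 8613 units of 1000 reads, with 14 to 18 erythroid markers. All 4 still listed Bnip3l (58.8, 145, 213 and 236 RPKM), Map1lc3b (52.3, 158, 352 and 395 RPKM) and Gabarapl2 (106, 160, 254 and 276 RPKM). All 4 also listed Trim10, at 48.8, 68.7, 158 and 227 RPKM, and Ubb, at 1741 to 7929 RPKM. Fbxo7 was listed in 1 of them at 76.6 RPKM, Ube2h in 1 at 55.4 RPKM, and Ulk1 and Trim58 in 0 of 4. In these 4 cells, 5 of the 9 genes were therefore present in every cell at levels within the range of mid-globin cells or above it, except for Ubb, of which 2 cells were lower. This did not hold for all cells with much Hba-a1. Of the 37 high-globin cells compared, 29 listed Bnip3l, 24 Trim10, 33 Map1lc3b and 33 Gabarapl2. At similar Hba-a1 (543440 and 545859 RPKM), cell 39 had 0 RPKM of Bnip3l, Map1lc3b and Trim10, while cell 87 had 45.0, 309 and 280 RPKM. Of the other 23 cells 20 had an estimated depth, of at most 1116 such units, and their values were not compared.

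The pathway partners of these genes were mostly lower or not called in high against low globin. List counts below are over all measured genes, but the 2.9% of genes higher and 58.7% lower are over genes past the filter. Past it, the lower share was 57.1% of 7 autophagy start genes, 37.5% of 8 LC3 family genes and 85.7% of 7 receptors. It was 66.7% of 18 E2 enzymes, 30% of 10 CTLH genes and 50% of 8 other TRIM and RING ligases. It was 100% of 3 SCF core genes, 4 ubiquitin and E1 genes and 2 autophagy and lysosome regulators. The higher share was 11.1% for E2 enzymes, 20% for CTLH genes, 37.5% for the other TRIM and RING ligases and 0% for the rest. All values below are differences of mean log2(RPKM + 1) in that comparison unless another is named. Of 20 measured E2 enzymes, 13 were called lower and 2 higher in high against low globin. The E2 for the ubiquitin-like protein ISG15, Ube2l6, was higher by 3.43, and was 8.47 in mean log2 level in high-globin cells, where all 37 listed it. Against the 6 marker-rich low-globin cells that difference was 0.41, whereas against non-erythroid cells it was 7.78. The other, Ube2s, an E2 of the cell-cycle ligase APC/C, was higher by 1.14, and by 0.86 against the marker-rich cells. Neither was called against those 6 cells, where 0 E2 enzymes were higher and 13 lower. Of the 18 past the filter these were 0% and 72.2%, beside 2.22% and 67.7% of all genes. The sign was checked there in 1 run code alone. The NEDD8 E2 Ube2m (-3.83) was lower.

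Of 11 measured genes of the CTLH ligase complex, with which Ube2h works, 2 were higher and 4 lower. Ranbp10, a RanBP9-like subunit, was higher by 2.41, listed in 75.7% of high-globin and 10% of low-globin cells, and by 2.23 against the marker-rich cells. Gid8, a subunit that links the complex, was higher by 1.54, but by 0.08 against the marker-rich cells. Maea, a RING subunit, was lower (-3.29), and Mkln1 differed by -1.92 without the same sign in all run codes. All 3 measured SCF core genes that act with Fbxo7 were lower: Cul1, the scaffold (-3.65), Skp1a, the adaptor (-3.58), and Rbx1, the RING subunit (-3.55).

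Among 11 other TRIM and RING ligases 3 were higher and 4 lower. The higher ones were Rnf123 by 1.92, Trim59 by 1.79 and March8, a membrane ligase known to act on the transferrin receptor, by 1.46. Against the marker-rich cells these were 1.05, 1.09 and 0.65. March8 was listed in 81.1% of high-globin, 90.9% of mid-globin and 50% of low-globin cells (66.7% of the marker-rich ones). It was listed in 0% of the 11 non-erythroid cells, which allows a share of up to 27.3%. Trim28 was lower by 3.00, and Trim27 (-2.45) and Rnf187 (-2.19) were lower too. Ube2s, Gid8, Rnf123, Trim59 and March8 were named after their values were seen.

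Of 5 ubiquitin and E1 genes 4 were lower, among them Rps27a, which encodes ubiquitin fused to a ribosomal protein (-5.64), and the E1 Uba1 (-3.05). In the autophagy lists none was called higher in high against low globin, beside 2.9% of all genes past the filter. Of 12 measured genes of autophagy start 4 were lower, among them Becn1, a subunit of the lipid kinase complex (-3.14), Atg101 (-2.58) and Uvrag (-1.49). Of 13 genes of the LC3 family and its conjugation 4 were lower, among them the LC3 protease Atg4b (-3.15), Atg5 (-2.29) and Gabarap (-1.22), while Gabarapl1 differed by -1.86 and was not called. Of 12 mitophagy and autophagy receptors 6 were lower, among them Phb2 (-4.94), Tax1bp1 (-3.37) and Sqstm1, which encodes p62 (-3.03). Of 5 autophagy and lysosome regulators 2 were lower, the lysosomal membrane proteins Lamp2 (-5.12) and Lamp1 (-4.21). Gabarap was named after its values were seen.

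Medians of these lists ran from -3.58 (SCF core) to -0.35 (other TRIM and RING ligases), beside -1.86 over all 5855 genes and -0.57 over the 9 genes. Bnip3, the close relative of Bnip3l and named after its values were seen, was listed in 54.5% of non-erythroid cells, 20% of low-globin, 0% of mid-globin and 2.70% of high-globin cells. Bnip3 was listed in too few of the analysed cells to pass the filter. The 2 receptors differed in opposite directions between mid-globin and non-erythroid cells, with Bnip3l higher and Bnip3 lower in mid-globin cells (3.69 and -3.10). Within erythroid cells both were listed in a smaller share of high-globin than of low-globin cells (78.4% against 90% for Bnip3l).

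The genes whose levels ran most like each member over the 58 erythroid cells were taken among 1511 genes listed in at least 50% of them. Spearman's rho is given as a description, since all cells share 1 sample and differ in listed genes. The marker-poor low-globin cells were included, and these values were not computed without them. Alas2, Urod and Car2, named below, are also among the markers that set the erythroid class. Trim10 was closest to Alas2 (0.59) and Urod (0.57), enzymes of heme synthesis, and to an entry named Mir3620 (0.57). Bnip3l was closest to Car2, a carbonic anhydrase (0.66), Glrx5, which acts in iron-sulfur cluster assembly (0.55), and Churc1 (0.54). Fbxo7 was closest to Cast, a calpain inhibitor (0.60), Glrx5 (0.55) and Tsn (0.55). Map1lc3b was closest to the cyclin gene Ccne1 (0.62), Car2 (0.57) and Abcb4 (0.54). Gabarapl2 was closest to Ubac1 (0.52) and the peroxiredoxin Prdx2 (0.51).

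Ubb was closest to Gm1821 (0.94), with which it shares sequence as given above, then Park7 (0.70) and Sdhd (0.70). Medians of rho over all genes ranked were 0.21 for Bnip3l, 0.35 for Ubb and -0.05 for Trim10. Among the members themselves, Bnip3l and Fbxo7 had a rho of 0.56 over the 58 cells and 0.54 within the 37 high-globin cells, Bnip3l and Map1lc3b 0.47 and 0.29, and Gabarapl2 and Trim10 0.40 and 0.33. Part of the other genes' reads may be shared too: 20.8% of the 50-base words of Bnip3l also occur in the pseudogene Bnip3l-ps, 12.2% of Gabarapl2 in 4 other genes, 8.87% of Ube2h in 3 and 5.77% of Map1lc3b in 183, against 0 for Fbxo7, Trim10 and Trim58 and 0.0445% for Ulk1.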

How the data were processed

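The authors deposited 1 table of RPKM values per RefSeq transcript for 96 cells, with 34899 rows. Per the submitters' processing notes, TopHat2 2.0.9 and the build mm9 were used, and the counting tool, annotation release and filters were not given in the sources used here. Members and gene lists were chosen with earlier results of these data known.

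A gene took its highest transcript in each cell, and differences were taken on log2(RPKM + 1), a scale that makes those of low values look smaller. A cell was non-erythroid with at least 3 markers, and at least 50% of those measured, of 1 of 8 non-erythroid lists at 10 RPKM, and otherwise erythroid with at least 3 erythroid markers. No cell fell in neither class, and no doublet caller was run. Named genes were the 9 members, for each member listed in at least 50% of erythroid cells its 3 most similar genes, and in each of 9 pathway lists up to 3 genes with the largest difference between high and low globin among those listed in at least 50% of either band. Those named outside this rule are marked in the text, and some genes that it picked are not reported here.

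Depth was estimated from the smallest value step of genes with 1 transcript row, using transcript lengths from the reference (found for 97.6% of rows). A median of 70.2% of low values were whole multiples of that step within 0.06. The step threshold was set on simulated data, and a step may be a read or a read pair. RPKM values that are no whole reads allow no count test. With 1 sample no test was possible. Intervals are exact Clopper-Pearson at 95%, and like limits from a count of 0 (3 counts) they hold counting error alone, because amplified reads are not independent molecules. The script was tested on simulated data. Python 3.11.15, pandas 2.3.3, numpy 2.4.6 and scipy 1.17.1 were used. Gene sequences of GRCm38 served for lengths, shared 50-base words and promoter windows only. The descriptions give 3 run codes where titles give 1, and the descriptions' codes were used.

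Alternatives were 2 pseudocounts (0.1 and 10), other transcript summaries, gene minimums, scalings, bands, marker rules, medians over cells and leaving out each run code. At least 10 erythroid markers, the same with no gene minimum, and leaving out cells 12 and 94 were added after seeing the data.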

Additional observations from a re-analysis of the deposited data

How the results depend on the processing

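Over 21 settings the 9 genes in 7 comparisons gave 1323 values. Of these 121 lost a call, 71 gained one without turning sign, and 29 turned the direction of a call made as reported. Of the rest, 1027 moved by less than the SD over cells and 75 by at least that, among them Trim58 comparisons with an SD of 0. The rest were sorted by size alone, so an uncalled difference could change sign there. Bnip3l in high against low globin ran from -2.21 to 1.41 with 0 values counted as turned. The cause was not tested beyond what each setting changes by construction. Trim10 kept its call in mid against low globin (2.16 to 6.43) and in high-globin against non-erythroid cells (2.28 to 6.59) in all 21 settings, and lost it in high against low globin in 1 (0.16, 3 near-equal bands by Hba-a1 rank). Fbxo7 kept its call in high-globin against non-erythroid cells in all 21 (1.27 to 5.57). The median over the 9 genes was 1.41 in high against low globin with no minimum of genes, in place of -0.57, -1.10 at a common total and between 0.0089 and 0.25 with a looser or a stricter gene minimum, without globin genes, with sums over transcripts, with lower band limits and with neutrophil or monocyte lists only, and 1.81 in high-globin against non-erythroid cells after rescaling without globin genes, in place of 0.58. Leaving out run codes gave -0.67 to 0.29 in high against low, 0.00 to 0.92 in high-globin against non-erythroid and 0.03 to 1.34 in low-globin against non-erythroid cells.

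Turned directions among differences called as reported were these. With no minimum of genes, high against mid globin gave 1.34 for Map1lc3b, 0.79 for Gabarapl2, 1.69 for Ubb and 0.86 for Trim10, high against low gave 2.19 for Ubb, mid-globin against non-erythroid gave -0.84 for Map1lc3b and -0.79 for Gabarapl2, and all erythroid against non-erythroid gave -0.35 for Map1lc3b. With at least 10 erythroid markers, mid against low gave -0.18 for Bnip3l, -0.39 for Map1lc3b and -0.69 for Fbxo7. With both, it gave -1.22 for Bnip3l, -1.54 for Map1lc3b, -0.15 for Gabarapl2 and -1.19 for Fbxo7, and high against mid gave 0.46 for Ubb. With bands by rank, high against mid gave 0.0304 for Ubb and 0.0431 for Fbxo7, and mid against low gave -1.15 for Bnip3l and -1.83 for Fbxo7. With the stricter gene minimum, high against mid gave 0.0161 for Map1lc3b and 0.22 for Trim10, and with the sum over transcripts, which also raises the 2 rows of Hba-a1 and so shifts the bands, 0.61 for Trim10. Map1lc3b in high-globin against non-erythroid cells gave -0.49 rescaled to a total of 1000000, -0.0897 with a marker threshold of 100 RPKM, -0.10 as medians over cells and -0.64 without run code SCP-1706080, where all erythroid against non-erythroid gave -0.11. As medians over cells, mid against low gave -0.25 for Map1lc3b.

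Counts of the 9 genes called moved as well. Higher calls ran from 0 to 3 in high against low, 0 to 1 in high against mid, 1 to 5 in mid against low, 2 to 5 in high-globin, 2 to 6 in mid-globin and 1 to 5 in low-globin against non-erythroid cells, and lower calls from 0 to 4, 0 to 6, 0 to 4, 0 to 3, 0 to 2 and 0 to 4. Rescaling moved the median of all genes in high against low globin from -1.86 to -2.38 at a common total and -1.89 without globin genes. No paired analysis was possible because all cells carry 1 group label and no number pairs them. Over all 24321 genes, without the filter on low values, 0.699% were called higher and 15.3% lower in high against low globin, in place of 2.9% and 58.7%. Ulk1, Ube2h and Trim58 were listed in few cells, and the part of depth in that was not tested. The Ulk1 call in low-globin against non-erythroid cells was lost in 9 of 21 settings.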
